A study of Mus musculus with 31 samples.

Results

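The cluster of miR-322, miR-503, miR-351, miR-542, and miR-450 is a group of 7 miRNA hairpins on the X chromosome. Its members were taken by name, as all listed mature miRNAs of the miR-322, miR-503, miR-351, miR-542, and miR-450 hairpins. These were 8 of the 507 miRNAs listed, namely both arms of miR-322, miR-503, and miR-450b, the 5p arm of miR-351, and the 3p arm of miR-542. RefSeq names 13 mature miRNAs for the 7 hairpins, and the other 5 (miR-351-3p, miR-542-5p, miR-450a-5p, miR-450a-1-3p, and miR-450a-2-3p) were not analysed here.

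The study asked how control of *Ago2* mRNA by the RNA-binding protein Trim71 acts on miRNAs in mouse embryonic stem cells (mESCs). All lines came from ES-E14TG2a, a male, HPRT-deficient mESC line. They were grown in 2i and lif, a medium that holds mESCs in the naive state. According to the study's methods all carried a FLAG tag on Trim71. The 4 genotypes were WT, with only the tag, CLIPΔ, with the Trim71 binding region in the *Ago2* 3′UTR deleted on both alleles, *Ago2* KO, with *Ago2* disrupted, and *Ago2* KO/CLIPΔ, with both changes. The altered lines were CRISPR-made single-cell clones, and the labels do not say which clone gave which library, so differences between genotypes and between clones cannot be told apart. Small RNA was sequenced in 4 libraries per genotype, 16 in all, and mRNA in 12, with 2 libraries each from WT and CLIPΔ and 4 each from the genotypes without *Ago2*. The labels call the libraries of a genotype biological replicates, without saying whether these were separate cultures or separate clones, and p-values measure the spread between these libraries. In the genotypes without *Ago2*, mRNA libraries 1 and 2 resembled each other and so did 3 and 4. The SD of the log2 difference between libraries over genes was 0.116 to 0.163 within those pairs and 0.225 to 0.342 across them. For small RNA it was 0.113 and 0.148 within and 0.264 to 0.276 across in *Ago2* KO/CLIPΔ, while in *Ago2* KO the 2 ranges overlapped. The labels do not say what the pairs share, so levels in these genotypes were also compared with each pair averaged to 1 value, an alternative chosen after the data were seen. It changed no call of a cluster miRNA, while 75.1% of the 249 miRNAs tested were then called in *Ago2* KO against WT, 77.1% in *Ago2* KO/CLIPΔ against CLIPΔ, 7.23% in *Ago2* KO/CLIPΔ against *Ago2* KO, and 33.3% for the interaction of the 2 changes.

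*Ago2* mRNA was at 24.9 ± 4.69 TPM (SD, n = 2) in WT, 23.8 ± 4.98 TPM (n = 2) in CLIPΔ, 1.95 ± 0.261 TPM (n = 4) in *Ago2* KO, and 2.18 ± 0.660 TPM (n = 4) in *Ago2* KO/CLIPΔ mESCs, so that the knockout labels held in every mRNA library. The small RNA libraries allow no such check. Of 9 markers of mESCs, 8 were listed, from *Esrrb* at 70.9 TPM to *Dppa5a* at 5113 TPM in WT. Of 12 markers of other cells, 11 were listed, and the highest in WT was *Eomes* at 49.5 ± 4.84 TPM (n = 2). *Klf4*, a naive pluripotency factor, was lower in CLIPΔ (778 against 1161 TPM in WT, adjusted p = 0.0183, limma), and 0 other markers passed there. Of all 11287 genes tested, 2.27% passed in that comparison. In *Ago2* KO against WT, *Klf4* (-0.54, adjusted p = 0.000666, limma) and the mesoderm marker *T* (-1.24, adjusted p = 0.00138, limma) were lower and *Pou5f1* was higher (0.22, adjusted p = 0.0467, limma). These were 3 of the 15 markers tested, a share below the 56.4% of all genes that passed. In *Ago2* KO/CLIPΔ against CLIPΔ, *Nanog* (-0.59) and *Tfcp2l1* (-0.55) were lower and *Pou5f1* (0.30) and *Eomes* (0.62) higher, where 54.9% of all genes passed. With the pairs averaged, *Klf4* and *T* in *Ago2* KO against WT were the marker calls that held, where 31.5% of all genes passed. The part of these markers in the results was not tested. In bulk libraries, fewer cells of a type and less RNA per cell cannot be told apart. The small RNA libraries of *Ago2* KO and *Ago2* KO/CLIPΔ held 759665 to 1229666 inferred reads of single-locus miRNAs, against 2954764 to 8043675 in WT and CLIPΔ. Depth thus moved with the *Ago2* genotype, and the effects of the 2 cannot be told apart in the comparisons across it.

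A miRNA hairpin yields 1 strand from each side of its stem, the 5p and the 3p arm, and an Argonaute protein such as Ago2 keeps 1 of them as a guide while the other is usually discarded. The guide finds mRNAs mainly by its seed, the bases near its 5′ end, so miRNAs with the same seed share many targets. miR-322 and miR-503 are known as brakes on the cell cycle that act in muscle and mesoderm differentiation, and miR-322-5p belongs by its seed to the miR-15 and miR-16 family. miR-351-5p shares its seed with miR-125, a family that acts on *Lin28a* and on cell survival genes.

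The 7 hairpins lay within 6353 bp of the minus strand of the X chromosome (GRCm38.p6). In the order of the strand, Mir322, Mir503, and Mir351 came first and lay inside the long noncoding RNA gene *C430049B03Rik* (chrX:53053112-53057190). A gap of 3767 bp followed, and then came Mir542, Mir450-2, Mir450-1, and Mir450b, outside that gene. The 5 miRNAs of the former hairpins are called the upstream group here, and the 3 miRNAs of miR-542 and miR-450b the downstream group. The mature sequences of the 8 members are shown 5′ to 3′, from RefSeq, with the seed (bases 2 to 8) in capitals, because the seed decides which other miRNAs they have to be compared with.
miR-322-5p: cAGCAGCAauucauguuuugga
miR-322-3p: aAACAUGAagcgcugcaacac
miR-503-5p: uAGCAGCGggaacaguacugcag
miR-503-3p: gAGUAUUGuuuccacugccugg
miR-351-5p: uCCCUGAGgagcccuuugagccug
miR-542-3p: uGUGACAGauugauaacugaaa
miR-450b-5p: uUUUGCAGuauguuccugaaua
miR-450b-3p: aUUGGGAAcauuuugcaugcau

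Their positions on the X chromosome, all on the minus strand, were 53054306-53054327 for miR-322-5p, 53054269-53054289 for miR-322-3p, 53054027-53054049 for miR-503-5p, and 53053987-53054008 for miR-503-3p. miR-351-5p lay at 53053315-53053338, miR-542-3p at 53049415-53049436, miR-450b-5p at 53048044-53048065, and miR-450b-3p at 53048008-53048029. Each of the 8 had 1 locus. Seeds were compared among the 442 of the 507 listed miRNAs found by name in the reference sequences. Among these, the seed of miR-322-5p was shared by 5 others and that of miR-351-5p by 1. The seeds of the other 6 members, miR-503-5p included, were shared by none of them. miR-450b-3p shared its seed and the 18 bases from its 5′ end, of 22, with miR-450a-1-3p of the same cluster, so reads trimmed at the 3′ end could come from either. Shown with that neighbour are the single-locus miRNAs of other loci that share a seed with a member, so without miR-16-5p (2 loci).
miR-450a-1-3p: aUUGGGAAcauuuugcauaaau
miR-15a-5p: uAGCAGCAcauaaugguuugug
miR-15b-5p: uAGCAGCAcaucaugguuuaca
miR-195a-5p: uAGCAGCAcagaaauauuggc
miR-497a-5p: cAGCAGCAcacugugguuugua
miR-125a-5p: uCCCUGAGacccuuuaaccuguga

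Levels are given as TPM, which divides reads by a length set for each miRNA, rescaled so that each library sums to 1000000. In WT mESCs the 8 members together made up 1155 ± 116 TPM (SD, n = 4), or 0.115% of all miRNA values. The order of the means ran from miR-322-5p (287 ± 53.2) through miR-503-5p (218 ± 30.7), miR-450b-3p (171 ± 28.4), miR-322-3p (148 ± 35.4), miR-542-3p (116 ± 20.8), miR-450b-5p (114 ± 41.8), and miR-351-5p (88.6 ± 12.6) to miR-503-3p (13.1 ± 6.22). Every neighbouring pair in that order overlapped between libraries except miR-351-5p and miR-503-3p. In *Ago2* KO mESCs the order was another, led by miR-322-3p (702 ± 40.8), miR-503-5p (520 ± 41.2), and miR-351-5p (342 ± 52.1), which did not overlap one another, while miR-542-3p (72.1 ± 7.43) was last. The sum of the 8 was 778 ± 208 TPM in CLIPΔ, 2155 ± 105 TPM in *Ago2* KO, and 1896 ± 73.5 TPM in *Ago2* KO/CLIPΔ.

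**Figure D1:**
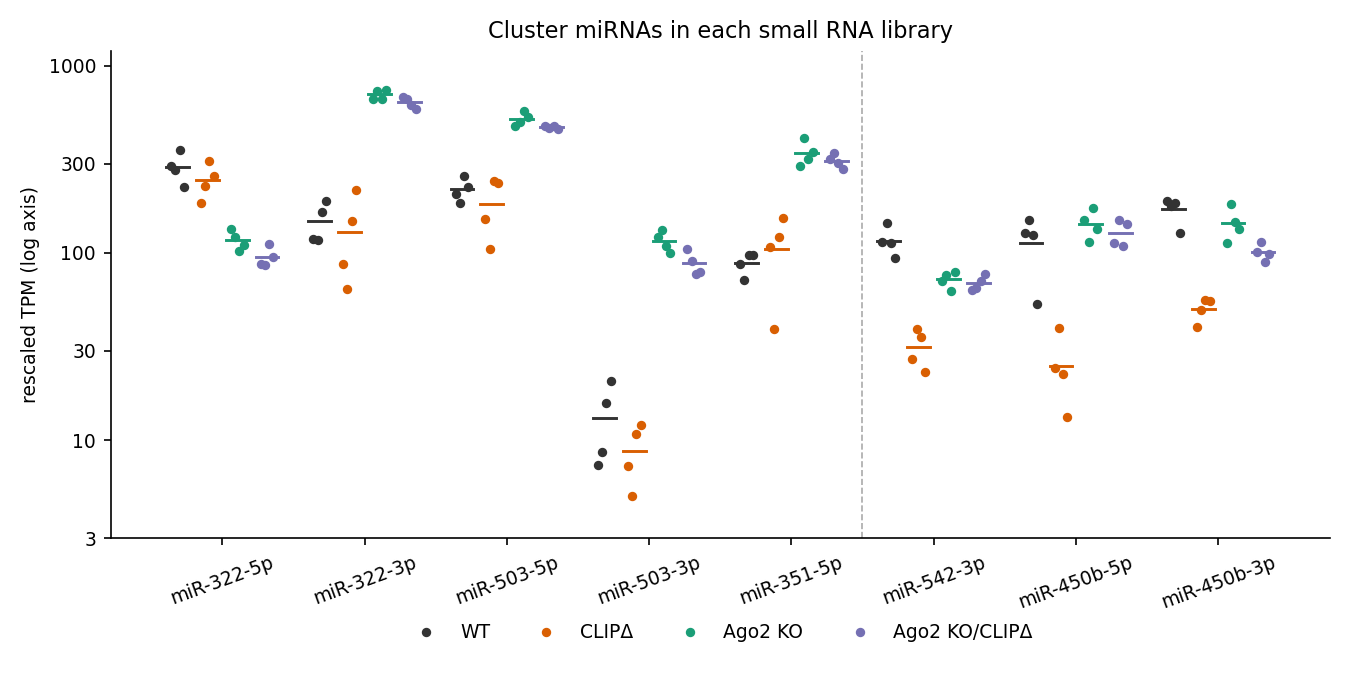
Rescaled TPM on a log axis of the 8 cluster miRNAs in each of the 16 small RNA libraries, with 1 point per library, bars at the means, and a dashed line between the upstream group (left) and the downstream group (right). The 4 CLIPΔ libraries lie below all others for the 3 downstream miRNAs, and the libraries without *Ago2* lie above the others for 4 of the 5 upstream miRNAs and below them for miR-322-5p.

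The first comparison asked what loss of Trim71 control over *Ago2* did to the cluster, CLIPΔ against WT. The downstream group fell from 400 ± 86.0 TPM in WT to 106 ± 18.1 TPM in CLIPΔ (SD, n = 4), and the upstream group was at 755 ± 99.7 TPM in WT and 672 ± 215 TPM in CLIPΔ. miR-450b-3p was at 190, 179, 185, and 128 TPM in WT libraries A to D and at 40.2, 49.3, 55.7, and 55.1 TPM in CLIPΔ libraries A to D. miR-542-3p was at 114, 144, 113, and 93.8 TPM in WT and at 27.0, 39.5, 35.5, and 23.1 TPM in CLIPΔ. miR-450b-5p was at 128, 149, 124, and 53.1 TPM in WT and at 24.2, 39.7, 22.7, and 13.4 TPM in CLIPΔ. In all 3 the lowest WT library, WT D, was still above the highest CLIPΔ library. Such a lack of overlap held for 3 of the 8 members and for 29.2% of all 507 miRNAs, so the members were near the background.

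Differences on the log2(TPM + 1) scale were tested with limma across the whole table (Benjamini-Hochberg adjusted p under 0.05), among miRNAs with a mean of at least 100 over the libraries compared. Of the 4 members above that minimum, 1 passed, miR-450b-3p, with 27.8% of the 227 miRNAs tested passing (44 up and 19 down). Its log2 fold change was -1.74 (SE 0.20, 95% interval -2.19 to -1.30, adjusted p = 0.000237, limma). A fit of all 507 miRNAs, which holds every member, called 3 of 8, all lower, with 26.8% of all miRNAs called (101 up and 35 down). In it, miR-542-3p fell by 1.87 (SE 0.24, adjusted p = 0.000288, limma) and miR-450b-5p by 2.14 (SE 0.39, adjusted p = 0.00223, limma). Both shares of members called were near the background when calls in either direction are counted, while more of the called miRNAs were up than down. The median log2 fold change was -0.40 over the 8 members and 0.16 over all 507 miRNAs. Without WT A or WT C, miR-450b-3p dropped under the minimum of 100 and no member was called, while the fit of all miRNAs called 3 members with any 1 library left out. With the replicate letter as a block, which pairs WT A with CLIPΔ A and so on, the same 3 members were called, among 55.1% of the 227 miRNAs and 51.1% of all 507.

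The upstream group did not pass in this comparison, and its 95% intervals were wide, from -1.31 to 0.93 on the log2 scale over the 5 miRNAs. These intervals come from the fit without the replicate letter. With the letter as a block, the SEs in the fit of all miRNAs were 0.16 to 0.22, against 0.22 to 0.37 without it. None of the 5 passed with the block. miR-322-5p was at 290, 277, 355, and 226 TPM in WT and at 186, 226, 311, and 258 TPM in CLIPΔ, a log2 fold change of -0.23 (SE 0.22, 95% interval -0.72 to 0.25, adjusted p = 0.461, limma). miR-503-5p was at 206, 185, 257, and 225 TPM in WT and at 152, 104, 241, and 236 TPM in CLIPΔ (-0.32, SE 0.28, 95% interval -0.95 to 0.30). miR-322-3p gave -0.32 (95% interval -1.13 to 0.50), and in the fit of all miRNAs miR-503-3p gave -0.48 (-1.31 to 0.35) and miR-351-5p 0.10 (-0.72 to 0.93). CLIPΔ A and B were the lowest for miR-503-5p and miR-322-3p, and CLIPΔ B alone was low for miR-351-5p, at 39.4 TPM against 108 to 153 TPM in the other CLIPΔ libraries. All 5 overlapped between WT and CLIPΔ. The sum of the downstream group divided by that of the upstream group was 0.540 in WT (0.363 to 0.715 over 4 libraries) and 0.176 in CLIPΔ (0.105 to 0.292), with no overlap. It was 0.200 (0.189 to 0.216) in *Ago2* KO and 0.187 (0.167 to 0.212) in *Ago2* KO/CLIPΔ, which overlapped.

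The same deletion was compared in cells without *Ago2*, *Ago2* KO/CLIPΔ against *Ago2* KO. There the 3 downstream miRNAs did not pass, and each overlapped between the genotypes, where 32% of all 507 miRNAs did not overlap. miR-542-3p was at 71.0, 75.9, 62.2, and 79.3 TPM in *Ago2* KO libraries 1 to 4 and at 63.7, 64.5, 70.4, and 77.1 TPM in *Ago2* KO/CLIPΔ libraries 1 to 4. miR-450b-5p was at 150, 114, 173, and 133 TPM and at 114, 150, 108, and 142 TPM. miR-450b-3p was at 113, 182, 146, and 135 TPM and at 101, 114, 88.9, and 98.4 TPM, where only the highest *Ago2* KO/CLIPΔ library reached into the *Ago2* KO range. No member passed, with 0 of 6 tested (22.1% of 249 miRNAs called, limma on all 16 libraries) and 0 of 8 in the fit of all miRNAs (16.4% called). At an unadjusted p under 0.05 there was 1 member, miR-450b-3p, with a log2 fold change of -0.50 (SE 0.18, adjusted p = 0.0553, limma), and limma with voom weights on inferred reads called 0 members. With the replicate number as a block, 2 members passed, miR-450b-3p (adjusted p = 0.00524, limma) and miR-503-3p (-0.39, adjusted p = 0.0131, limma), where 62.1% of 232 miRNAs passed. Libraries of the same number were not the most alike between these genotypes, so the values show no pairing behind this block.

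The difference between these 2 effects of the deletion was tested as the interaction of the genotypes. It was 1.25 for miR-450b-3p (SE 0.25, adjusted p = 0.000586, limma), 1.99 for miR-450b-5p (SE 0.44, adjusted p = 0.00119, limma), and, in the fit of all miRNAs, 1.81 for miR-542-3p (SE 0.28, adjusted p = 5.78e-05, limma). The deletion thus went with a smaller drop of all 3 downstream miRNAs in cells without *Ago2* than in cells with it. Among members, 2 of 6 tested passed, with 49.4% of miRNAs called, and 3 of 8 in the fit of all miRNAs, with 41.6% called. With the replicate block these counts stayed at 2 and 3, with 64.7% and 55% of miRNAs called. The 5 upstream members ranged from -0.24 (miR-351-5p) to 0.18 and did not pass. miR-351-5p passed only without CLIPΔ B, at -0.65 (adjusted p = 0.0226, limma). miR-322-5p, at -0.07, turned to 0.11 when libraries were scaled by their median ratio.

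**Figure D2:**
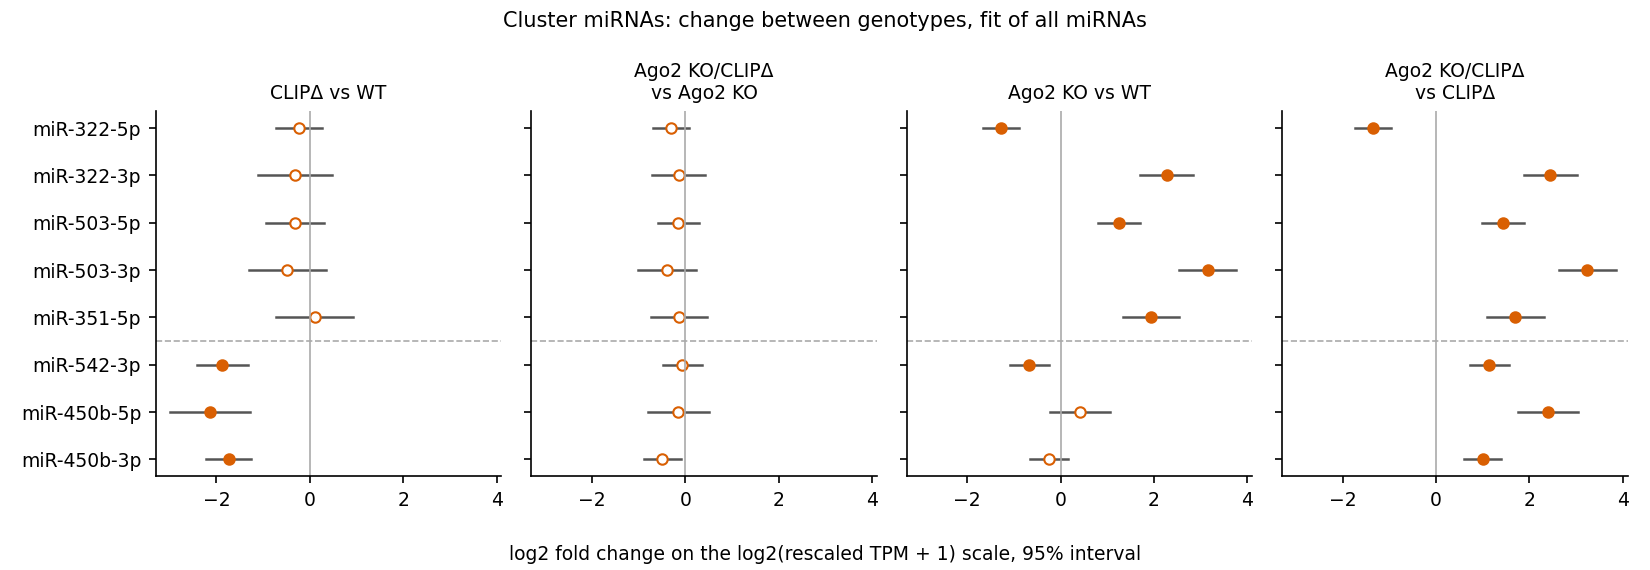
Log2 fold changes on the log2(rescaled TPM + 1) scale, with 95% intervals, of the 8 members in the 4 comparisons, from the fit of all 507 miRNAs. Filled points had an adjusted p under 0.05 and open points did not, and a dashed line parts the upstream group (top) from the downstream group. The 3 downstream members lie left of 0 in CLIPΔ against WT, no point is filled in *Ago2* KO/CLIPΔ against *Ago2* KO, and miR-322-5p is the upstream member that is lower without *Ago2*.

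Loss of *Ago2* was compared in cells with the intact *Ago2* 3′UTR, *Ago2* KO against WT. Of the upstream group, 4 miRNAs rose and miR-322-5p fell. miR-322-3p rose from 118, 118, 165, and 189 TPM in WT to 667, 733, 667, and 741 TPM in *Ago2* KO, a mean 4.76-fold higher (log2 fold change 2.27, SE 0.27, adjusted p = 6.61e-07, limma). miR-322-5p, the other arm of the same hairpin, fell to 133, 121, 102, and 110 TPM, or 0.407 of its WT mean (-1.28, SE 0.18, adjusted p = 3.13e-06, limma). No *Ago2* KO library overlapped a WT library for either arm, as was the case for 65.9% of all 507 miRNAs.

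miR-503-5p rose to 474, 502, 569, and 534 TPM (1.25, SE 0.21, adjusted p = 2.82e-05, limma). Its other arm, miR-503-3p, was at 7.41, 8.60, 15.8, and 20.6 TPM in WT and at 121, 133, 108, and 100.02 TPM in *Ago2* KO, the largest change among the members (3.15, SE 0.29, adjusted p = 1.27e-08, fit of all miRNAs with limma). It rested on 49 to 109 inferred reads per library in WT and on 87 to 140 in *Ago2* KO. miR-351-5p was at 87.2, 71.3, 97.9, and 97.9 TPM in WT and at 290, 412, 317, and 347 TPM in *Ago2* KO (1.94, SE 0.29, adjusted p = 9.01e-06, limma).

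The downstream group moved less. miR-542-3p was lower, at 72.1 ± 7.43 against 116 ± 20.8 TPM (-0.67, SE 0.20, adjusted p = 0.00507, fit of all miRNAs with limma), and miR-450b-3p (-0.25, adjusted p = 0.203, limma) and miR-450b-5p (0.41, adjusted p = 0.230, limma) did not pass. In all, 4 of 6 tested members and 6 of 8 in the fit of all miRNAs passed, where 82.7% of 249 and 71.6% of 507 miRNAs passed, so the members' share was near the background. When libraries were scaled by their median ratio in place of the total, all miRNAs shifted by -0.51. On that scale miR-322-3p (1.76), miR-351-5p (1.43), miR-503-5p (0.74), and miR-503-3p (2.66) were still higher and miR-322-5p (-1.79) and miR-542-3p (-1.18) still lower, miR-450b-3p was called lower (-0.76, adjusted p = 0.00119, limma), and miR-450b-5p turned to -0.10.

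In cells with the deletion, *Ago2* KO/CLIPΔ against CLIPΔ, all 8 members passed in the fit of all miRNAs, with 74.4% of miRNAs called, and 6 of 6 above the minimum, with 83.1% called. miR-322-3p (2.45), miR-503-5p (1.43), miR-503-3p (3.24), and miR-351-5p (1.70) were higher and miR-322-5p (-1.35) lower, as in the comparison with WT. The 3 downstream members were all higher than in CLIPΔ, miR-450b-5p by 2.40 (SE 0.31, adjusted p = 1.36e-06, limma), miR-542-3p by 1.14 (SE 0.20), and miR-450b-3p by 1.00 (SE 0.18). Median scaling shifted all miRNAs by -0.34 here, after which miR-450b-3p was at 0.66 and miR-542-3p at 0.81 and both still passed.

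The 2 arms of miR-322 thus exchanged places without *Ago2*. The 3p arm was 28.9%, 29.8%, 31.8%, and 45.5% of both arms in WT libraries A to D, and 83.3%, 85.8%, 86.7%, and 87.0% in *Ago2* KO libraries 1 to 4. In CLIPΔ it was 33.0% ± 9.64 (SD, n = 4) and in *Ago2* KO/CLIPΔ 87.0% ± 1.88. Such a ratio within a library does not depend on how libraries are scaled. For miR-503 the 3p arm rose from 5.52% ± 2.13 to 18.3% ± 2.76, so its 5p arm stayed the more abundant one in all 16 libraries. For miR-450b the 3p arm was 61.2% ± 6.82 in WT, 67.3% ± 10.9 in CLIPΔ, 50.1% ± 8.22 in *Ago2* KO, and 44.1% ± 2.60 in *Ago2* KO/CLIPΔ.

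**Figure D3:**
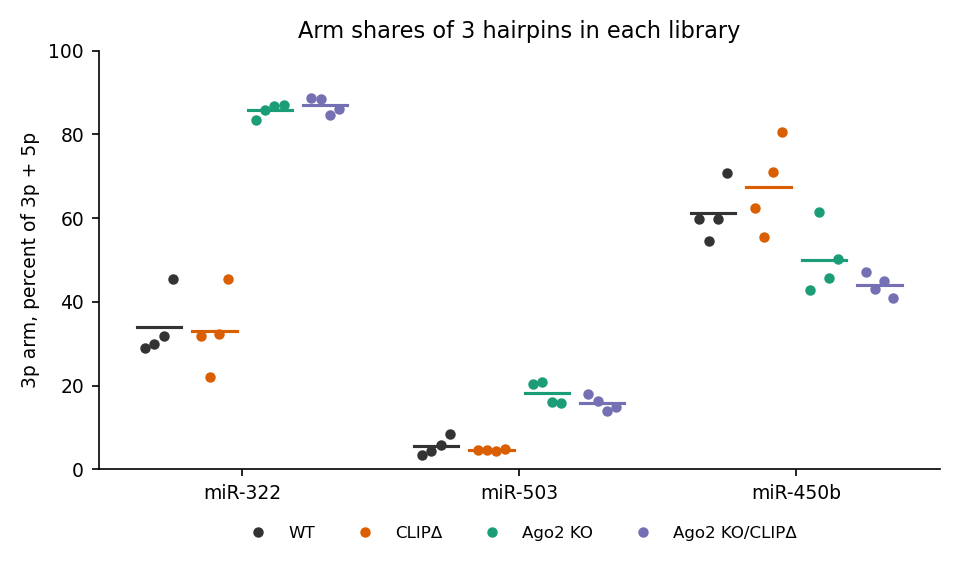
Share of the 3p arm in the sum of both arms, in percent, for the 3 hairpins with both arms listed, with 1 point per library and bars at the means. For miR-322, all 8 libraries with *Ago2* lie at or below 45.6% and all 8 without it at or above 83.3%.

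The log2 ratio of 3p to 5p was tested with limma over all 154 hairpins with both arms listed. In *Ago2* KO against WT it rose by 3.55 for miR-322 (SE 0.29, adjusted p = 6.83e-09, limma) and by 1.89 for miR-503 (SE 0.24, adjusted p = 1.19e-06, limma), and gave -0.66 for miR-450b (SE 0.32, adjusted p = 0.0729, limma). Among the 154 hairpins 77.9% passed, 76 towards the 3p arm and 44 towards the 5p arm, with a median size of 1.60. By size, 22 hairpins including miR-322 had a shift at least as large as that of miR-322, and 65 one at least as large as that of miR-503. In *Ago2* KO/CLIPΔ against CLIPΔ, where 83.8% passed, the changes were 3.79 for miR-322 (SE 0.29), 1.81 for miR-503 (SE 0.24), and -1.40 for miR-450b (SE 0.32, adjusted p = 0.000781, limma). The CLIPΔ deletion gave 0 of 154 hairpins, with 9 at an unadjusted p under 0.05 in CLIPΔ against WT and 4 in *Ago2* KO/CLIPΔ against *Ago2* KO. With the replicate block, 3 and 0 hairpins passed at an adjusted p under 0.05 in these comparisons, and none of them was of the cluster.

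**Figure D4:**
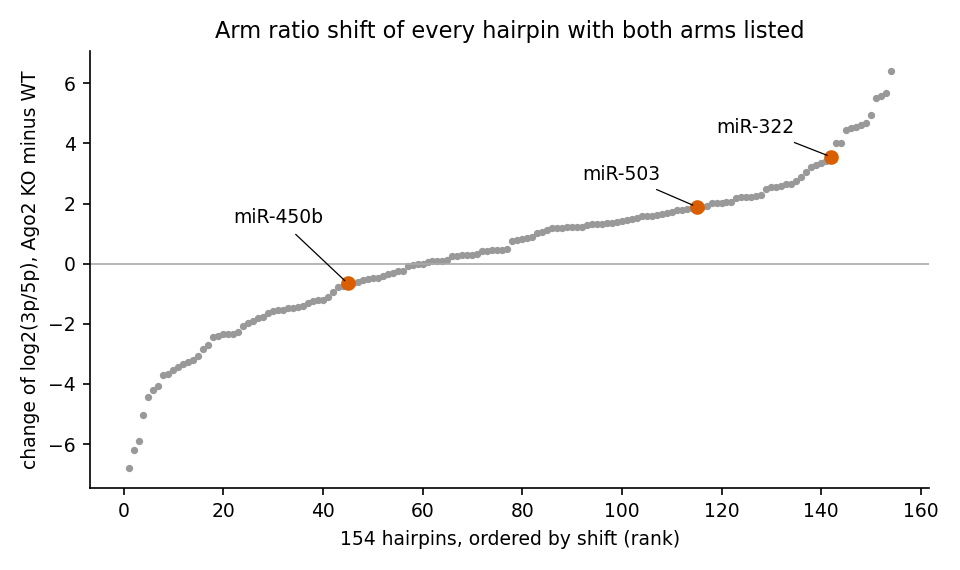
Change of the log2 ratio of the 3p to the 5p arm, *Ago2* KO minus WT, for 154 hairpins in order of the change, with the 3 hairpins of the cluster marked. miR-322 stands at 3.55 near the upper end, miR-503 at 1.89, and miR-450b at -0.66.

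miRNAs of other loci that share a seed with a member were compared with it, among those with a reference sequence. miR-322-5p made up 22.3% ± 5.92 (SD, n = 4) of the summed level of the 5 single-locus miRNAs with its seed in WT, 17.5% ± 4.08 in CLIPΔ, 10.8% ± 1.49 in *Ago2* KO, and 10.4% ± 1.21 in *Ago2* KO/CLIPΔ. miR-15b-5p (527 ± 275 TPM) and miR-15a-5p (356 ± 129 TPM) were the other abundant ones in WT. miR-195a-5p and miR-497a-5p, which lie together on chromosome 11, were lower in CLIPΔ, in the fit that called 26.8% of all miRNAs. miR-195a-5p was at 58.8 ± 3.82 TPM in WT and 20.4 ± 6.30 TPM in CLIPΔ (-1.53, SE 0.25, adjusted p = 0.00131, fit of all miRNAs with limma), and miR-497a-5p at 86.1 ± 16.4 and 32.0 ± 9.42 TPM (-1.43, SE 0.27, adjusted p = 0.00276, limma). Like the downstream members, both had an interaction of the genotypes above 0, 1.39 for miR-195a-5p (adjusted p = 0.000211, limma) and 1.77 for miR-497a-5p (adjusted p = 0.000399, limma). The interaction was called for 49.4% of the 249 miRNAs tested (57 above 0 and 66 below). In the fit of all miRNAs, used for miR-497a-5p, it was called for 41.6% (81 above 0 and 130 below).

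In *Ago2* KO against WT the family split, where 82.7% of 249 and 71.6% of all 507 miRNAs passed. miR-195a-5p rose to 204 ± 6.68 TPM (1.78, SE 0.18, adjusted p = 5.83e-08, limma) and miR-15a-5p fell from 356 to 55.4 ± 13.1 TPM (-2.62, SE 0.32, adjusted p = 6.55e-07, limma), as did miR-497a-5p (-1.66, adjusted p = 3.72e-06, limma), while miR-15b-5p (0.49, adjusted p = 0.0768, limma) did not pass. miR-16-5p, which has 2 loci and was left out of the summed level, fell from 77.7 ± 6.36 to 42.0 ± 5.68 TPM (-0.88, SE 0.20, adjusted p = 0.00051, fit of all miRNAs with limma). miR-125a-5p, with the seed of miR-351-5p, was at 751 ± 60.03 TPM in WT, 1223 ± 350.6 TPM in CLIPΔ (0.66, SE 0.22, adjusted p = 0.0477, limma), and 3611 ± 469 TPM in *Ago2* KO. miR-351-5p was 10.6% ± 1.64 of the sum of both in WT, 7.62% ± 2.16 in CLIPΔ, 8.64% ± 0.634 in *Ago2* KO, and 9.12% ± 0.913 in *Ago2* KO/CLIPΔ, which overlapped.

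The nearest other miRNA cluster, miR-106a to miR-363, lies 305.4 kb away on the same chromosome and had 9 listed miRNAs. In CLIPΔ against WT, 0 of its 5 tested miRNAs passed (median log2 fold change -0.33), where 27.8% of miRNAs did. Of 6 tested in *Ago2* KO against WT, 3 rose and 1 fell, where 82.7% of miRNAs passed. Its most abundant member, miR-20b-5p, was at 4246 ± 1002 TPM in WT and 3216 ± 727 TPM in CLIPΔ. None of its 6 tested miRNAs passed the test of the interaction, where 49.4% did.

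Across the 16 libraries, which share depth and genotype, the members fell into blocks by Pearson's r of log2 values, given as a description. miR-322-3p, miR-503-5p, miR-503-3p, and miR-351-5p correlated with one another at 0.94 to 0.99, the 3 downstream members at 0.80 to 0.90, and miR-322-5p was at -0.78 to -0.87 with the other 4 of its group. These values hold the genotype differences given above. With the genotype means taken out, the first 4 were at 0.67 to 0.89 and the downstream members at 0.23 to 0.66. miR-322-5p was then at 0.12 to 0.42 with the other 4, so its negative r was not kept. Against those 4, miR-450b-5p was at -0.79 to -0.56, miR-542-3p at -0.63 to -0.49, and miR-450b-3p at -0.08 to 0.24. A mean over members thus joins miRNAs that did not all move together. The miRNAs outside the cluster most like the mean of the 6 tested members were miR-302a-5p (r = 0.957), miR-182-3p (0.953), miR-125b-1-3p (0.947), miR-224-5p (0.945), and miR-92a-1-5p (0.944), all over 16 libraries. After the genotype means were taken out, the order was led by miR-296-5p (0.881), miR-543-3p (0.875), and miR-302a-5p (0.752), so miR-302a-5p was the miRNA found by both measures.

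mRNAs around the cluster and reported target mRNAs were compared in the 12 mRNA libraries with limma on log2(TPM + 1), where genes averaging below 1 TPM were left out. The mRNA values are TPM as deposited and their depth is unknown. *C430049B03Rik*, the noncoding gene that holds the upstream hairpins, was at 4.73 and 0.603 TPM in the 2 WT libraries, 2.26 and 1.08 TPM in CLIPΔ, 0.924 to 1.53 TPM in *Ago2* KO, and 0.954 to 1.70 TPM in *Ago2* KO/CLIPΔ. The WT libraries spanned the values of every other genotype, and the gene did not pass (-0.22, SE 0.44 in CLIPΔ against WT and -0.51, SE 0.38 in *Ago2* KO against WT).

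Of 5 tested genes within 500 kb of Mir322, 1 passed in CLIPΔ against WT, where 2.27% of 11287 genes passed. It was *Ccdc160*, a coiled-coil gene, at 6.06 and 5.71 TPM in WT and 11.5 and 11.9 TPM in CLIPΔ (0.88, SE 0.16, adjusted p = 0.0144, limma). In *Ago2* KO against WT, 4 of the 5 fell, among them *Ccdc160* (-0.66, SE 0.14) and *Fam122b* (-1.22, SE 0.20), where 56.4% of genes passed and the median over all genes was -0.26. *Fam122b* was at 12.1 and 9.95 TPM in WT and at 4.71, 3.84, 3.64, and 4.40 TPM in *Ago2* KO. In *Ago2* KO/CLIPΔ against *Ago2* KO, 0 of 5 passed, with 0.877% of genes called.

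Genes reported as targets of the miR-15, miR-16, miR-322, and miR-503 seeds, mostly cell cycle genes, were taken as a list of 18, of which 15 were tested. In CLIPΔ against WT, 2.27% of all 11287 genes passed and the seed-bearing members did not. Of the 15, 1 fell and none rose. This was *Cdk6*, a kinase that drives entry into S phase, at 4.67 and 4.29 TPM in WT and 2.34 and 2.86 TPM in CLIPΔ (-0.61, SE 0.12, adjusted p = 0.0264, limma). The median over the 15 was -0.03, against -0.05 over all genes. Over the locus and target lists, markers aside, 2 mRNAs were called here, *Ccdc160* and *Cdk6*, and the count was 0 without CLIPΔ 1, 1 without WT 1 or without *Ago2* KO 2, and 0 in the 4 libraries alone. It was also 0 with the pairs of libraries averaged, where 0.39% of genes passed.

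In *Ago2* KO against WT, 11 of the 15 fell and 1 rose, where 56.4% of genes passed, and the median was -0.57 against -0.26 over all genes. Of the 6364 genes called in that comparison, 4785 were lower. With the pairs of libraries averaged, 10 of the 15 passed, where 31.5% of genes did, and each of the genes named here was still called. *E2f3*, a transcription factor of the G1 to S transition, fell from 13.5 and 11.5 TPM in WT to 5.76, 5.64, 4.60, and 4.42 TPM (-1.15, SE 0.12, adjusted p = 4.96e-05, limma). *Siah1a*, a ubiquitin ligase, fell from 14.8 and 9.56 TPM to between 3.61 and 3.72 TPM (-1.47, SE 0.21, adjusted p = 0.000250, limma). *Ccnd3*, which encodes cyclin D3, was the gene that rose, from 15.4 and 19.9 TPM to 40.7, 38.7, 39.7, and 37.3 TPM (1.11, SE 0.14, adjusted p = 0.000118, limma). *Cdk6* (-0.79, SE 0.11, adjusted p = 0.000175, limma) and *Cdc25a*, a phosphatase that activates cyclin-dependent kinases (-0.44, SE 0.09, adjusted p = 0.00207, limma), were among the others that fell. *Cdc25a* was at 71.8 and 85.2 TPM in WT, 89.1 and 97.4 TPM in CLIPΔ, and 54.3 to 61.6 TPM in *Ago2* KO.

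**Figure D5:**
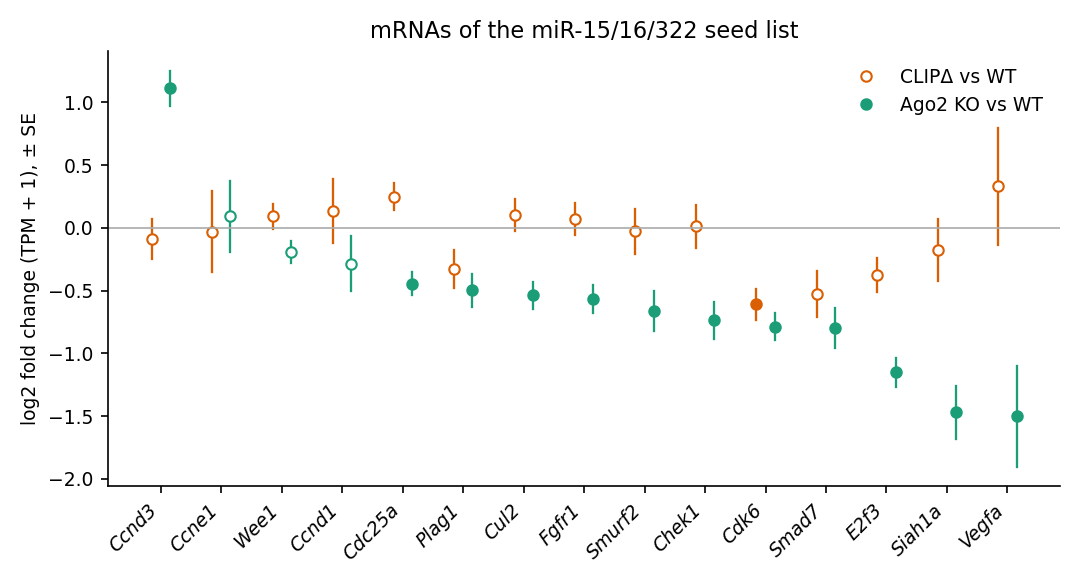
Log2 fold changes on the log2(TPM + 1) scale, with bars of 1 SE, of the 15 tested mRNAs on the list of reported targets of the miR-15, miR-16, miR-322, and miR-503 seeds, in CLIPΔ against WT and in *Ago2* KO against WT. Filled points had an adjusted p under 0.05, which were 1 in the former comparison and 12 in the latter, and *Ccnd3* is the filled point above 0.

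In *Ago2* KO/CLIPΔ against *Ago2* KO, 0 of the 15 passed, with 0.877% of genes called. In *Ago2* KO/CLIPΔ against CLIPΔ, 9 fell and 1, again *Ccnd3*, rose, with 54.9% of genes called. With the pairs averaged, 9 of the 15 passed in the latter comparison, with 28.6% of genes called. The 2 comparisons across *Ago2* had different control libraries. Of 6 reported targets of the miR-125 and miR-351 seed, 4 were tested. None passed in CLIPΔ against WT, where 2.27% of genes did. *Lin28a*, an RNA-binding protein of pluripotent cells, was at 108 and 104 TPM in WT and at 44.6 and 72.1 TPM in CLIPΔ (-0.88, SE 0.28, adjusted p = 0.149, limma). Of the 4, 2 fell in *Ago2* KO against WT, near the share of all genes called (56.4%). *Birc5*, the survivin gene and a reported target of miR-542-3p, was at 147 and 200.0 TPM in WT, 165 and 215 TPM in CLIPΔ, and 226 to 256 TPM in *Ago2* KO, where it rose by 0.49 (SE 0.13, adjusted p = 0.00765, limma), a call lost with the pairs averaged. In CLIPΔ, where miR-542-3p was lower, it gave 0.13 (SE 0.15, adjusted p = 0.806, limma).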

How the data were processed

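Small RNA from 16 libraries and mRNA from 12 libraries of 4 mESC genotypes were used. Per the labels and the methods, the authors aligned to mm10 by HISAT2 2.1.0 and counted with HTSeq, taking 1 transcript (the longest) per gene. They deposited the result as TPM, 1 column per library. Only features above 0 in every library were listed, 507 miRNAs and 15034 genes. Columns whose code names neither WT nor *Ago2* alone were read as CLIPΔ by elimination, and the WT and CLIPΔ small RNA columns carry letters that match no single sample label. Small RNA values were rescaled to 1000000 per library (sums were 996976.5 to 999392.8). Tests on log2(value + 1) were made in R 4.3.3 by limma 3.58.1, using lmFit followed by eBayes with a trend. CLIPΔ against WT for miRNAs used its 8 libraries, and all other comparisons used a model of both genotypes and their interaction over all libraries of an assay. A miRNA was tested when its deposited values averaged 100 or more, and all were tested again without that minimum. The study's methods use a count test, which TPM values do not allow as the main test.

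Reads were inferred from the steps between low values, after each value was multiplied by the length of its miRNA minus 1. At least 98.76% of low values per library were then whole multiples of 1 step within 0.05. The inferred reads served for depth and for limma with voom weights. WT and CLIPΔ libraries with the same letter deviated together, at r = 0.384, 0.710, 0.349, and 0.744 for letters A to D. For *Ago2* KO and *Ago2* KO/CLIPΔ, r was 0.158, 0.372, 0.517, and 0.360 for numbers 1 to 4. There each *Ago2* KO library correlated more with another number, at up to 0.185, 0.524, 0.603, and 0.372. The block by number thus follows the labels, and the values of these genotypes show no such pairing. The labels do not say what a letter or number stands for.

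The members and the gene lists were chosen with earlier results of these data known. The text names all members, the miRNAs with their seeds, the 5 most similar miRNAs, and of the mRNA lists the 8 called genes of lowest adjusted p. The neighbouring cluster is given as counts, with the level of its most abundant member. Of the lists, *Lin28a*, *Birc5*, *C430049B03Rik*, *Chek1*, and the markers were named outside that limit, after their values were seen. Alternatives were other scalings, pseudocounts, filters, libraries in the fit, the replicate block, leaving out each library, and averaging pairs of *Ago2* KO libraries, this last chosen after the data were seen. The scripts were tested on simulated data. Python 3.11.15 with numpy 2.4.6, pandas 2.3.3, and matplotlib 3.10.9 was used. CLIP peaks were not used here.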

Additional observations from a re-analysis of the deposited data

Results flagged for a closer look

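Single libraries were checked in 86 groups of 4, where chance gives about 1 outlying library in 20 groups, and 4 stood apart by Dixon's ratio. WT D was low for miR-450b-3p, at 128 TPM (ratio 0.850). WT D was also high for the share of the 3p arm of miR-322, at 45.5% (ratio 0.8295). Among mRNAs, *Ago2* KO 2 was high for *Chek1*, at 19.1 TPM (ratio 0.851), and *Ago2* KO/CLIPΔ 1 was low for *E2f3*, at 4.58 TPM (ratio 0.859).

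The effect of the CLIPΔ deletion differed between cells with and without *Ago2* for the 3 downstream miRNAs, by the interaction of the genotypes in limma. The difference was 1.25 for miR-450b-3p, 1.99 for miR-450b-5p, and 1.81 for miR-542-3p on the log2 scale.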

How the results depend on the processing

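Among alternative values of the members' log2 fold changes, 713 kept their side of the threshold and 9 came to pass it. Some of the 713 changed sign, where neither value passed. An example is miR-450b-5p in *Ago2* KO against WT, from 0.41 to -0.10 with median scaling. In CLIPΔ against WT, the count of members called was 1, and 3 with no filter or a mean of at least 10, 2 with all 16 libraries in 1 model, and 0 to 1 with a library left out (0 without WT A or WT C). In *Ago2* KO/CLIPΔ against *Ago2* KO it was 0, and 1 with median scaling or a pseudocount of 10, 2 in these 2 groups alone or with the replicate block, and 0 to 1 with a library left out (1 without WT D, CLIPΔ A, CLIPΔ B, or *Ago2* KO 1). In the fit of all miRNAs it was 2 with the block and 1 without *Ago2* KO 1. For the interaction it was 2, and 1 to 3 with a library left out (1 without WT B, *Ago2* KO 1 or 3, or *Ago2* KO/CLIPΔ 2 or 4, where a member fell under the minimum mean). For *Ago2* KO against WT it was 4 and ranged from 4 to 6 over the alternatives, and for *Ago2* KO/CLIPΔ against CLIPΔ it was 6 and ranged from 4 to 8, as the number of members tested changed. Averaging libraries 1 and 2 and libraries 3 and 4 of the genotypes without *Ago2* changed none of these counts. The replicate block changed no other call of a member. The count over all miRNAs in CLIPΔ against WT was 63, 136 with no filter, and 125 with the block, and in *Ago2* KO/CLIPΔ against *Ago2* KO 55, 83, and 144. The share of the cluster was 0.215% in *Ago2* KO and 0.190% in *Ago2* KO/CLIPΔ, and 0.236% and 0.205% by inferred reads. Those reads are not divided by length, and their total covers only the 427 single-locus miRNAs. Of the mRNAs of the locus and target lists, markers aside, 2 were called in CLIPΔ against WT, 0 in the 4 libraries alone or with those pairs averaged, 4 with no filter, 1 with the replicate block, and 0 to 2 with a library left out. The cause of these differences was not tested beyond what the settings themselves show. The depth of the *Ago2* KO libraries limits the lowest members, such as miR-542-3p with 55 to 101 reads in *Ago2* KO/CLIPΔ.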
